A study of Mus musculus with 20 samples.

Results

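H3K36me3 domains of 10 kb or more are the widest peaks called for histone H3 lysine 36 trimethylation in these thymocytes. They were the peaks of the H3K36me3 list whose width, from first to last base, was 10000 bp or more. This rule kept 731 of 49181 H3K36me3 peaks, and the remaining 48450 are called shorter peaks here. The cells were CD4+/CD8+ double-positive thymocytes, the stage at which developing T cells carry both coreceptors, from the thymus of wild-type C57BL/6 mice aged 5 to 6 weeks, selected on CD8 and then CD4 with magnetic beads. No treatment or mutant was part of the series. Chromatin immunoprecipitation and sequencing (ChIP-seq) gave 1 peak list for each of total RNA polymerase II (Pol II), its Ser5P and Ser2P forms, the histone marks H3K4me3, H3K4me1 and H3K36me3, the coactivator CBP, the transcription factor ETS1, TBP, its partner Taf1, and the general factors TFIIA, TFIIB, TFIIE, TFIIF and TFIIH. The H3K36me3 antibody was ab9050. FAIRE, which recovers open chromatin without an antibody, gave a list of its own, so 16 lists with 270514 peaks were at hand from the 20 samples. Differences could not be set against variation between animals, since each target had a single list, and no p-value was computed. Intervals on counts and shares are at 95%, treat peaks as independent and cover counting error only.

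H3K36me3 is placed on nucleosomes behind elongating Pol II by SETD2. This enzyme binds the C-terminal repeats of Pol II when they are phosphorylated on sites that include serine 2. The mark therefore lies over the bodies of transcribed genes, usually away from the start and stronger toward the end, whereas H3K4me3, TBP and Ser5P Pol II mark the start. H3K4me1 is found around promoters and at many enhancers.

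The domains held 1.49% of the H3K36me3 peaks (Wilson interval 1.38 to 1.60), 9.53% of the length covered by the list and 13.3% of its summed area. Area is the authors' value for the signal under a peak, in arbitrary units. Domain widths ran from 10000 to 40500 bp (median 12400 bp, quartiles 10915 and 14975), and shorter peaks had a median of 1360 bp. Area per bp had a median of 142 in domains (92.7 to 258) and 80.9 in shorter peaks (45.4 to 569), so the highest values belonged to shorter peaks. Width chose the members and area grows with it, so these values are a description. Around the threshold nothing marked a boundary. The narrowest members spanned 10000, 10010 and 10020 bp with 187, 122 and 142 area per bp, and the 3 widest peaks left out spanned 9980 bp each with 104, 168 and 94.7.

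**Figure D1:**
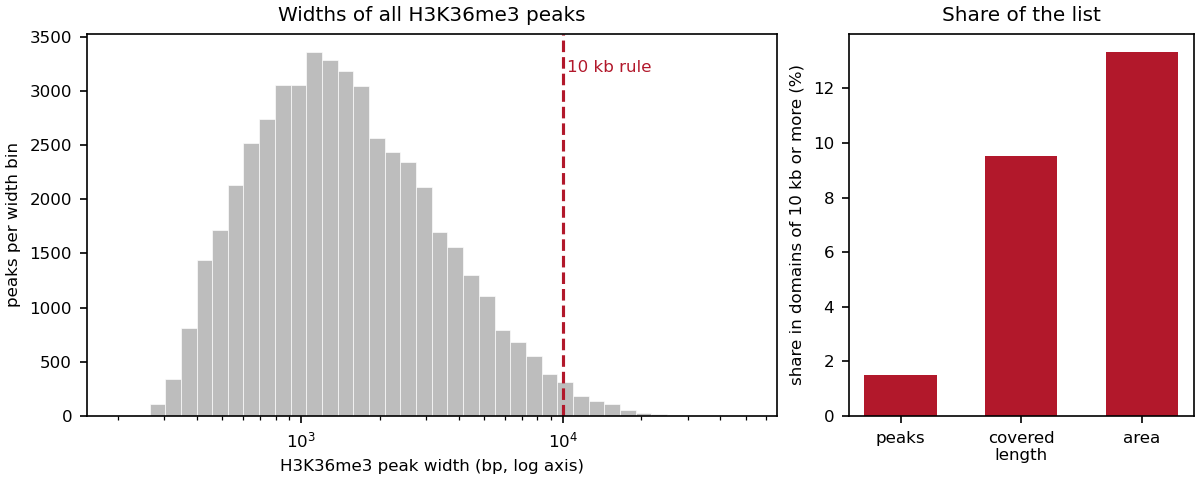
Left, number of H3K36me3 peaks (vertical) by width in bp (log axis), with the 10 kb rule as a dashed line. Right, the share in percent of peaks, covered length and area in the 731 domains; widths fall off smoothly past the rule, and the domains hold 1.49% of peaks but 13.3% of area.

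Domains lay on every autosome, and 2 of 731 lay on the X chromosome. Chromosome 11 had the densest set, 67 domains or 0.550 per Mb up to the last peak of any list, and chromosome 12 the sparsest among autosomes, 25 domains or 0.207 per Mb. Chromosome 11 also had the most H3K36me3 peaks of any width, 32.4 per Mb, and domains were 1.69% of them (1.34 to 2.15), against 1.51% (1.41 to 1.63) over all 19 autosomes. Chromosome 15 stood highest in that share, with 43 domains among 1745 peaks or 2.46% (1.83 to 3.30), while its 16.9 H3K36me3 peaks per Mb were near those of chromosomes with fewer domains. On the X chromosome domains made up 0.203% (0.0558 to 0.738) of 984 peaks. No domain was found among the 23 peaks of the Y chromosome, a number that allows a share of up to 14.3% (Wilson upper bound).

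**Figure D2:**
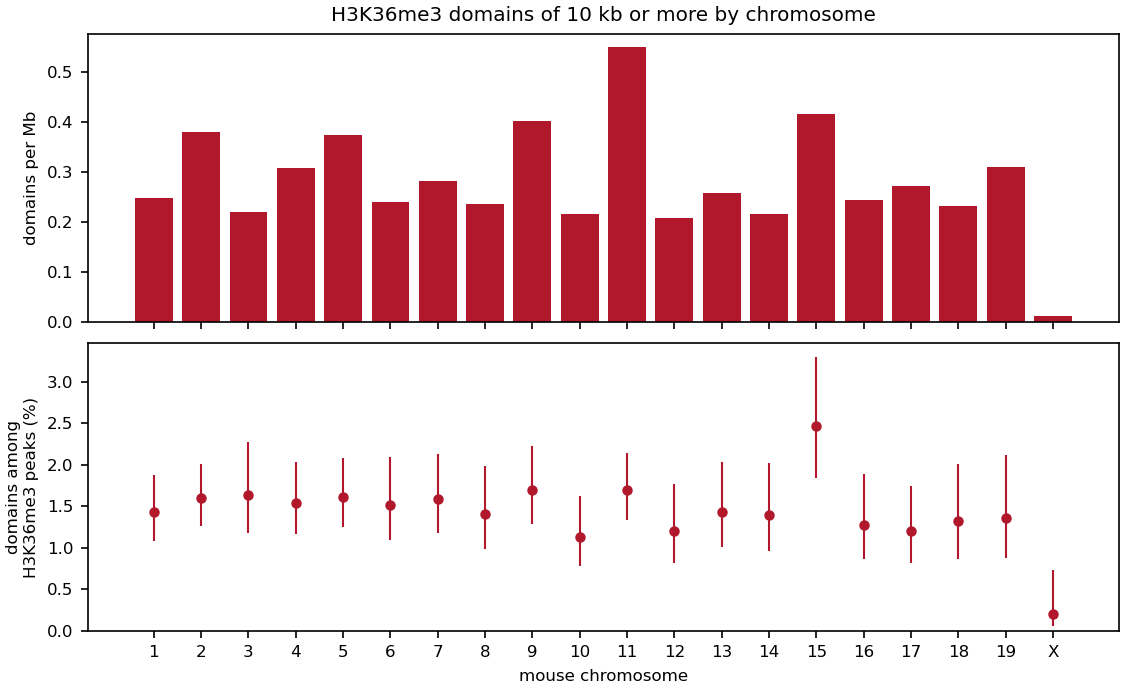
Domains per Mb (top) and domains as a percentage of all H3K36me3 peaks with Wilson 95% intervals (bottom) for each mouse chromosome but Y. Chromosome 11 is highest per Mb at 0.550, chromosome 15 highest as a share of peaks at 2.46%, and X lowest in both panels.

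Most domains were pieces of longer marked tracts. Another H3K36me3 peak lay within 1000 bp of 660 domains (90.3%), against 80.4% of shorter peaks, and within 100 bp of 431 domains (59.0%), against 39.6%. Joining peaks over gaps of 1000 bp or less gave 664 tracts with a domain in them. Their median width was 24220 bp (quartiles 17080 and 33552.5, longest 143250), and they held a median of 5 H3K36me3 peaks. Of these tracts 58 held more than 1 domain, at most 4. More of the mark thus often followed within 1000 bp of a domain's end.

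Inside the domains, total Pol II and Ser2P peaks were denser than inside shorter peaks. Peak centres of total Pol II numbered 608, or 6.11 per 100 kb (5.64 to 6.62), against 1.92 per 100 kb (1.83 to 2.01) in shorter peaks, a ratio of 3.19 (exact conditional interval 2.90 to 3.50). Ser2P, the form found on elongating Pol II, numbered 240, or 2.41 per 100 kb (2.12 to 2.74), against 0.735 (0.681 to 0.792), a ratio of 3.28 (2.82 to 3.81). The ratio was above 1 on 17 of 20 chromosomes for total Pol II and on 18 of 20 for Ser2P. By covered length the domains had 15.3 bp of total Pol II and 14.9 bp of Ser2P peaks per kb, against 4.07 and 3.96 bp in shorter peaks. Of the whole Ser2P list 13.3% was centred in domains and 38.3% in shorter peaks. For the whole total Pol II list these shares were 3.37% and 10.0%, so Ser2P had the larger share in both classes.

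The central 1000 bp of a region gives a reading with the same searched length in every region, though in wider regions it lies farther from the ends. A total Pol II peak overlapped it in 30 of 731 domains, or 4.10% (2.89 to 5.80), against 1.16% (1.05 to 1.29) of the 31678 shorter peaks of 1000 bp or more, a difference of 2.94 points (Newcombe interval 1.72 to 4.64). A Ser2P peak overlapped it in 20 domains, or 2.74% (1.78 to 4.19), against 0.792%, a difference of 1.94 points (0.980 to 3.40). This reading was added after seeing the data.

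Ser5P, the form near initiation, gave a weaker and uneven picture. Its 66 centres in domains were 0.664 per 100 kb (0.513 to 0.844), against 0.394 (0.355 to 0.436) in shorter peaks, a ratio of 1.68 (1.28 to 2.19). However, 5 domains held 38 of the 66 centres, the ratio was above 1 on 10 and below 1 on 9 of 20 chromosomes, and by covered length domains had less Ser5P than shorter peaks, 0.586 against 0.642 bp per kb. In the central 1000 bp, domains were higher by 0.397 points (-0.000164 to 1.31), an interval that reaches 0.

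Of the factors that assemble at start sites, TBP and TFIIB were less dense in domains than in shorter peaks. TBP, which binds the core promoter and nucleates the initiation complex, had 10 centres in 9 domains, 0.101 per 100 kb (0.0482 to 0.185), against 0.236 (0.206 to 0.269) in shorter peaks, a ratio of 0.426 (0.201 to 0.798). TFIIB, the link between TBP and the polymerase, had 7 centres in 7 domains and a ratio of 0.421 (0.166 to 0.887). Their ratios were below 1 on 15 and 16 of 20 chromosomes. With so few centres most chromosomes had none in domains, so these counts largely follow from sparsity and add little. TFIIF, with a ratio of 0.982, was below 1 on 14 of 20 chromosomes, and TFIIH on 16. The TBP difference was not called with domains of 15000 bp or more (0.646, 0.208 to 1.53), nor with peaks joined over gaps of 1000 bp (0.890, 0.696 to 1.14), and in the central 1000 bp it was not detectable, with 2 domains holding a TBP peak. The intervals of Taf1, the largest subunit of the TBP-containing complex TFIID (0.901), TFIIE (0.758), TFIIF (0.982), TFIIH (0.717) and TFIIA (1.38, 0.995 to 1.88) held 1.

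H3K4me1 was sparser in domains than in shorter peaks. It had 193 centres in 89 domains, 1.94 per 100 kb (1.68 to 2.23), against 2.81 (2.70 to 2.92), a ratio of 0.692 (0.594 to 0.801) that was below 1 on 16 of 20 chromosomes. H3K4me3 had 17 centres in 13 domains, 0.171 against 0.248 per 100 kb, a ratio of 0.690 (0.395 to 1.13). CBP, a histone acetyltransferase found at enhancers, had 24 centres and FAIRE 17, with ratios of 1.27 (0.790 to 1.94) and 1.25 (0.707 to 2.08). In the central 1000 bp CBP overlapped 4 domains, or 0.547%, against 0.186% of shorter peaks (0.361 points, 0.0224 to 1.21). ETS1, a T-cell transcription factor, had 1 centre in 9.94 Mb of domains and 13 in 94.4 Mb of shorter peaks. Of the 15 lists, 3 had an interval above 1 (total Pol II, Ser2P and Ser5P), 3 had one below 1 (TBP, TFIIB and H3K4me1) and 9 had one that held 1.

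**Figure D3:**
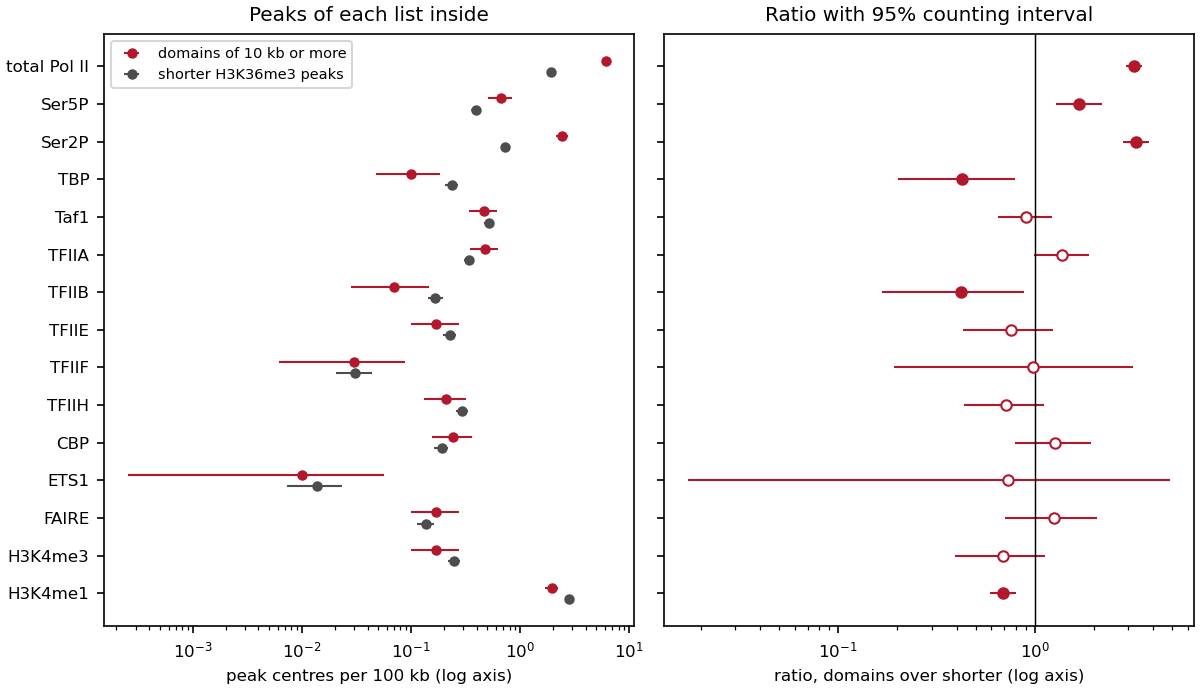
Left, peak centres of each of the 15 other lists per 100 kb (log axis) inside domains (red) and inside shorter H3K36me3 peaks (grey), with exact Poisson 95% intervals. Right, the ratio of domains to shorter peaks (log axis) with its interval, filled where the interval excludes 1; total Pol II and Ser2P lie highest at 3.19 and 3.28.

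Polymerase was concentrated in a minority of the domains. A total Pol II centre lay in 98 domains (13.4%, 11.1 to 16.1), and the 10 fullest of these held 243 of the 608 centres. Among shorter peaks, which span less sequence each, the minority was smaller, at 1.50% with a total Pol II centre and 1.04% with a Ser2P centre. A Ser2P centre lay in 95 domains (13.0%, 10.8 to 15.6), and the 10 fullest domains held 87 of the 240. Centres cluster, and the intervals of the ratios, which treat them as independent, are too narrow. Leaving out the 10 fullest domains, which were picked by the value measured, still gave ratios of 1.95 (1.74 to 2.18) for total Pol II and 2.13 (1.78 to 2.54) for Ser2P.

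The 2 polymerase lists met in the same domains. Both had a centre in 67 domains, total Pol II without Ser2P in 31, Ser2P without total Pol II in 28, and neither in 605 (82.8%, 79.9 to 85.3). Ser2P was thus present in 68.4% (58.6 to 76.7) of domains with total Pol II and in 4.42% (3.08 to 6.32) of those without. H3K4me1 was found in 38.8% (29.7 to 48.7) of domains with total Pol II and in 8.06% (6.18 to 10.4) of those without. TFIIH, a helicase and kinase complex, was found in 12.2% and 1.42%, and TFIIA, a partner of TBP, in 15.3% and 4.42%. Every remaining list also had a larger share in domains with total Pol II, some on few domains. Taf1 had 13.3% and 4.90%, and H3K4me3 10.2% and 0.474%. Shorter peaks were not split in this way. Median H3K36me3 area per bp was 170 in the 67 domains with both polymerase lists and 137 in the 605 with neither, and their median widths were 13080 and 12190 bp. Peaks of Ser2P were wider in domains, with a median of 400 bp (quartiles 300 and 620), than in shorter peaks (370 bp) or outside the mark (270 bp), while total Pol II peaks had medians of 120, 110 and 150 bp.

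Many domains carried the mark without any listed polymerase. No total Pol II, Ser5P or Ser2P peak lay inside or within 5000 bp of 449 domains (61.4%, 57.8 to 64.9). No peak of any of the 12 factor lists or of FAIRE lay there for 316 domains (43.2%, 39.7 to 46.8), against 67.9% (67.4 to 68.3) of shorter peaks, which search less sequence. The polymerase count was not made for shorter peaks. Within 5000 bp of an end, total Pol II lay at 30.9% of domains against 13.8% of shorter peaks. Ser5P lay there at 19.0% against 8.48%, and Ser2P at 16.6% against 3.55%. A lack of listed polymerase near the ends was thus not particular to domains. The depth behind the lists is unknown, so polymerase below the authors' threshold cannot be told apart from its absence.

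The 5 domains with most total Pol II centres lay on chromosomes 9, 14 and 15. Total Pol II was most frequent in a domain of 26.5 kb on chromosome 9 at 112024721 to 112051260, with 34 centres, 9 Ser2P centres and 2 Ser5P centres. A domain farther along, at 112068431 to 112088850 (20.4 kb), had 28 total Pol II and 8 Ser2P centres. These 2 had total Pol II and Ser2P peaks at both ends, no TBP centre, and a nearest TBP peak 59.1 and 21.5 kb away. Between them lay a domain at 112051371 to 112062340 with 17 total Pol II and 3 Ser2P centres, and before them one at 111965801 to 111986870 with 18 and 5, both named after their values were seen. Fuller domains lay elsewhere, such as 57592471 to 57604410 on chromosome 9 with 21 total Pol II centres. Another, at 117104061 to 117128820 on chromosome 2, had 19. On chromosome 14 the domains at 54815451 to 54825870 and 54828191 to 54840730 had 27 total Pol II centres each, with 7 and 15 of Ser5P and 3 and 7 of Ser2P. H3K4me3 overlapped both of these, and their H3K36me3 area per bp, 104 and 135, was below the median of all domains. A domain on chromosome 15 at 97621431 to 97633810 had 29 total Pol II centres, 8 of Ser2P and none of the other lists.

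Ser2P was most frequent in a pair on chromosome 17 less than 100 bp apart. The domain at 51905631 to 51925910 (20.3 kb) had 14 Ser2P centres and that at 51892001 to 51905580 (13.6 kb) had 11, more than their 5 and 7 total Pol II centres. They also held 7 and 8 H3K4me1 centres, and their nearest H3K4me3 peaks were 20.6 and 40.9 kb away. The fourth domain by Ser2P, on chromosome 9 at 32533421 to 32547440, had 9 Ser2P centres, 21 of total Pol II, 10 of H3K4me1 and 2 of H3K4me3.

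Peaks near the ends were counted in windows of 5000 bp to either side of each end. Total Pol II lay within such a window at 226 of 731 domains, or 30.9% (27.7 to 34.4), against 13.8% (13.5 to 14.1) of shorter peaks and 14.0% of all H3K36me3 peaks. The difference was 17.1 points (13.9 to 20.6). H3K4me3 lay there at 214 domains, or 29.3% (26.1 to 32.7), against 18.6% of shorter peaks and 18.8% of all, a difference of 10.7 points (7.48 to 14.1). TBP followed at 153 domains, or 20.9% (18.1 to 24.0), against 11.4% of shorter peaks and 11.6% of all, a difference of 9.52 points (6.71 to 12.6). Ser2P lay there at 121 domains, or 16.6% (14.0 to 19.4), against 3.55% of shorter peaks and 3.74% of all, a difference of 13.0 points (10.5 to 15.9). Domains were higher on 20 of 20 chromosomes for total Pol II and H3K4me3 and on 19 of 20 for TBP and Ser2P.

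This share favours domains by construction, since their end windows do not overlap while those of a shorter peak largely cover the same sequence. Single 5000 bp flanks outside the region, a count added after seeing the data, remove that difference in searched length. A flank of a domain held total Pol II in 17.2% of 1462 cases (15.4 to 19.3), against 7.57% (7.40 to 7.74) of the 96900 flanks of shorter peaks. H3K4me3 stood at 16.6% (14.7 to 18.5) against 10.3% (10.1 to 10.4), TBP at 10.9% (9.38 to 12.6) against 5.95% (5.81 to 6.10) and Ser2P at 6.70% (5.53 to 8.10) against 1.73% (1.65 to 1.82). All 4 differences had intervals above 0, at 9.67, 6.30, 4.92 and 4.97 points. Counted instead over single ends with both sides of the window, H3K4me3 no longer separated the classes, at 16.6% of domain ends against 15.2% of shorter ones (1.44 points, -0.395 to 3.45), while total Pol II (8.58 points, 6.61 to 10.7), Ser2P (7.43, 5.96 to 9.11) and TBP (2.32, 0.787 to 4.05) still did.

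**Figure D4:**
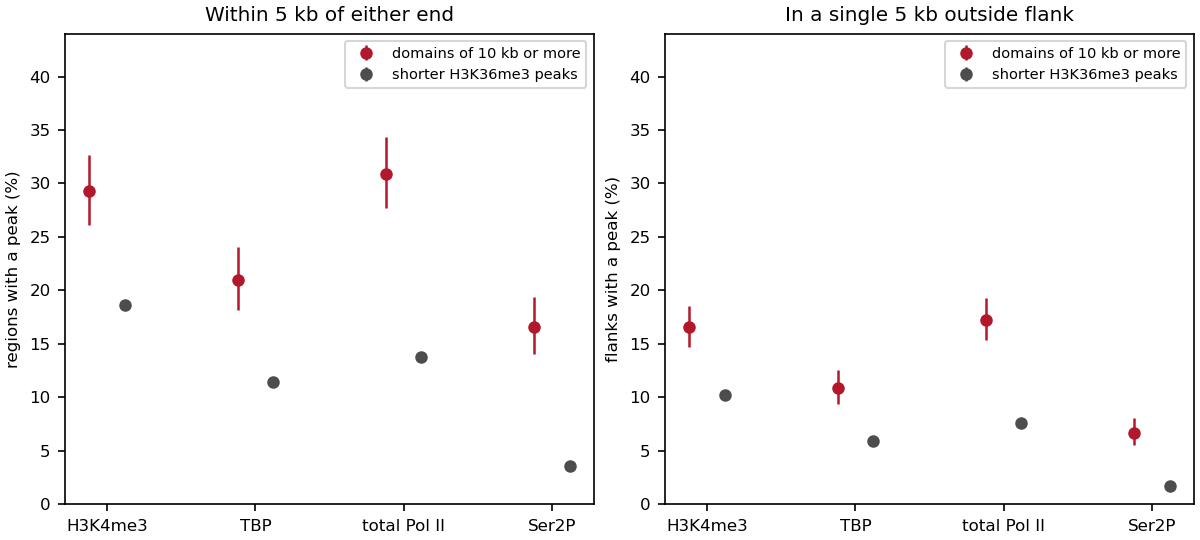
Left, percentage of domains (red) and shorter H3K36me3 peaks (grey) with a peak of each list within 5 kb of either end. Right, percentage of single 5 kb outside flanks with such a peak; bars are Wilson 95% intervals, and domains lie above shorter peaks for all 4 lists in both panels, by 17.1 points for total Pol II at either end.

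Most domains had no H3K4me3 or TBP at either end, and those that had it mostly had it at 1 end. H3K4me3 was present at both ends of 29 domains, at 1 end of 185 and at neither end of 517. TBP was present at both ends of 12, at 1 end of 141 and at neither end of 578. Total Pol II reached both ends more often, at 64 domains against 162 with 1 end, and Ser2P did so at 32 against 89. All 4 lists were found at the ends of 40 domains (5.47%) and none of them at 410 (56.1%), against 0.916% and 76.0% of shorter peaks. The nearest H3K4me3 peak was a median of 10.5 kb from a domain (quartiles 3.87 and 25.1), against 16.7 kb from a shorter peak, and the nearest TBP peak 16.4 kb against 26.2 kb. These distances run from the edge of the region. A domain's edge lies farther from its centre than that of a shorter peak, so the width rule favours domains here.

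The 185 domains with H3K4me3 at exactly 1 end allowed the opposite end to be compared with the H3K4me3 end of the same domain. This choice required H3K4me3 at 1 end and its absence at the other. Lists whose peaks lie near H3K4me3 were thereby set to lean to the H3K4me3 end, so the splits below are a description. TBP lay within 5000 bp of the opposite end alone in 5 domains and of the H3K4me3 end alone in 98, and total Pol II in 5 and 87. Ser5P lay at the opposite end alone in 2 domains and at the H3K4me3 end alone in 88. TFIIB, TFIIE, which recruits TFIIH, and FAIRE were split likewise, with 1, 3 and 1 domains against 61, 66 and 61, and H3K4me1 with 0 against 149. CBP was at the opposite end alone in 2 and at the H3K4me3 end alone in 29. Taf1 had 5 against 20, TFIIA 7 against 23, TFIIH 6 against 25, TFIIF 2 against 11 and ETS1 0 against 8.

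Ser2P was counted more often at the opposite end, but the difference was not called. It lay at the opposite end alone in 23 domains and at the H3K4me3 end alone in 12, with both ends in a further 10. The share of opposite ends was 65.7% (Clopper-Pearson interval 47.8 to 80.9), which did not exclude 50%. It excluded 50% with windows of 2000 bp (77.3%, 54.6 to 92.2) and with domains of 8000 bp or more (69.5%, 56.1 to 80.8), and after joining peaks over gaps of 1000 bp (68.6%, 59.5 to 76.9), and turned to 40.0% (12.2 to 73.8) in domains of 15000 bp or more. It fell toward 50% with the upper 50% of Ser2P peaks by area (53.8%, 33.4 to 73.4). The same held with 10000 bp windows (57.6%, 39.2 to 74.5) and with windows only outside the domain (57.7%, 36.9 to 76.6). For the 13 other lists set against H3K4me3 the interval excluded 50% and lay below it, the side that the choice of domains favoured. No test of the difference between Ser2P and these lists was run.

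Along the domain, divided into 5 equal parts, Ser2P centres numbered 26 in the part at the opposite end, then 17, 17, 4 and 18 toward H3K4me3. The domains holding them numbered 19, 15, 12, 3 and 9. Total Pol II had 51, 49, 57, 31 and 31 centres in the same order, in 18, 19, 19, 10 and 10 domains. H3K4me1 ran the other way, with 10, 7, 11, 19 and 51 centres. TBP had 2 centres in these 185 domains. Outside the H3K4me3 end its centres were most frequent between 5 and 4 kb from the domain, with 43 centres in that kb, and 10 lay in the last kb before the edge.

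**Figure D5:**
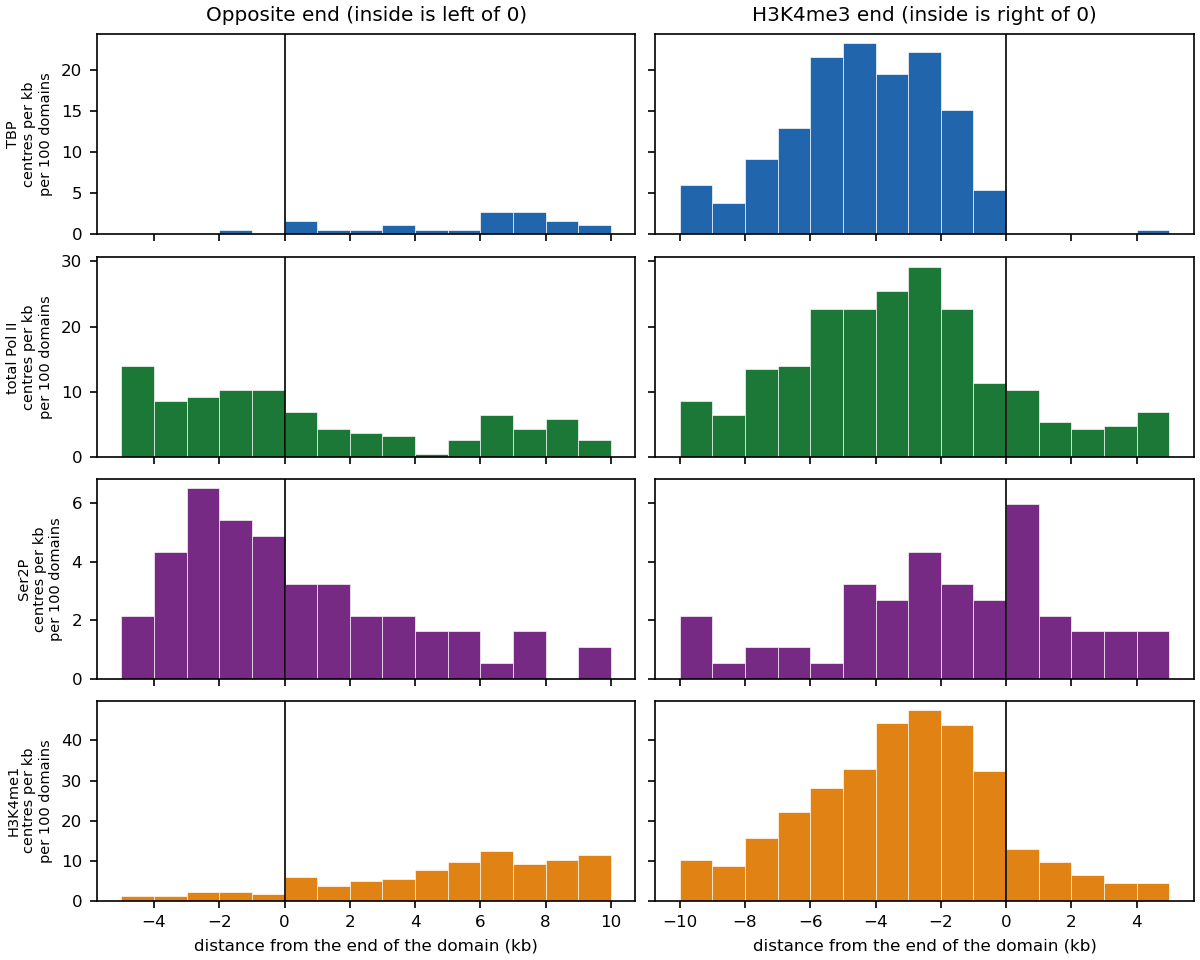
Peak centres per kb per 100 domains (vertical) by distance in kb from the opposite end (left) and from the H3K4me3 end (right) of the 185 domains with H3K4me3 within 5 kb of exactly 1 end, for TBP, total Pol II, Ser2P and H3K4me1, with a vertical scale for each row. TBP, total Pol II and H3K4me1 centres gather outside the H3K4me3 end, where the choice of domains placed H3K4me3. Ser2P centres lie both inside and outside the domain at either end.

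Among the domains, width went with little at the ends. H3K4me3 lay within 5000 bp of an end in 27.6% (23.0 to 32.8) of the 322 domains from 10000 to under 12000 bp, in 32.2% (26.4 to 38.5) of the 227 from 12000 to under 15000 bp, in 28.9% (21.9 to 37.0) of the 135 from 15000 to under 20000 bp and in 27.7% (16.9 to 41.8) of the 47 of 20000 bp or more. TBP stood at 20.5%, 22.5%, 20.0% and 19.1% in that order. Ser2P had 13.7% (10.3 to 17.8), 18.1%, 19.3% and 21.3%, with intervals that overlap throughout. Total Pol II centres per 100 kb were 4.98, 6.59, 5.25 and 10.0, but 34, 28 and 18 of the 116 centres in the widest class came from 3 of the domains on chromosome 9 described above. A further 19 came from a domain on chromosome 2. A total Pol II centre lay in 10.2%, 13.7%, 15.6% and 27.7% of domains in that order, though wider domains search more sequence. Median H3K36me3 area per bp was 134, 144, 149 and 162.

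The 10 longest domains held at most 3 total Pol II centres each, whereas the next by length, of 26540 bp on chromosome 9, held the 34 given above. The longest of all spanned 40500 bp on chromosome 1 at 164614561 to 164655060, with 3 total Pol II centres and 1 of TFIIA, and had H3K4me3 2.70 kb and TBP 3.06 kb beyond its right end. The next, at 40042181 to 40082160 on the same chromosome (39980 bp), held 1 centre each of Ser5P, FAIRE and H3K4me1, with TBP 3.33 kb beyond its right end and the nearest H3K4me3 peak 48.4 kb away. The third, on chromosome 6 at 71538201 to 71572710 (34510 bp), had the highest area of any domain (181 per bp over its length) and no centre of any other list, with H3K4me3 8.28 kb away. A domain on chromosome 15 at 77590451 to 77623800 (33350 bp) held 1 total Pol II and 1 FAIRE centre. The domains ranked 5, 6, 8 and 9 by length held no centre of any list. They lay on chromosome 12 at 111853721 to 111883300, on chromosome 7 at 130309691 to 130338820, on chromosome 12 at 84996771 to 85024250 and on chromosome 2 at 29860651 to 29887910. The seventh, on chromosome 11 at 62126561 to 62154360, held 1 total Pol II and 1 Ser5P centre, and the tenth, on chromosome 1 at 155301561 to 155328710, held 2 of total Pol II, 3 of TFIIA and 1 of TFIIB. None of the 10 held a Ser2P centre.

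The 5 domains of highest area per bp ranged from 10180 to 16230 bp, and the first 3 held many polymerase peaks. The first, on chromosome 15 at 66610131 to 66620310 (10180 bp), had 258 area per bp, 16 total Pol II, 7 Ser5P, 3 Ser2P and 4 H3K4me1 centres, and H3K4me3 0.101 kb and TBP 0.451 kb from its right end. The second, on chromosome 7 at 118211171 to 118225020, had 233 area per bp with 9 total Pol II and 3 Ser2P centres, and an H3K4me3 peak that overlapped it. The third, on chromosome 10 at 20854491 to 20870720, had 232 area per bp, 19 total Pol II and 4 Ser2P centres and 1 centre each of Ser5P, TBP, Taf1, TFIIA, TFIIE, TFIIH and CBP. The fourth and the fifth, on chromosome 11 at 69547401 to 69562190 and on chromosome 16 at 23966081 to 23978920, had 228 and 222 area per bp, with 1 total Pol II centre each and, in the fifth, 1 of Ser2P.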

How the data were processed

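The authors deposited 1 peak list per target with chromosome, start, end and signal area of each peak. Per the track names in the file headers, every track but FAIRE had artefacts removed, was scaled and was background-subtracted. File names mark 13 lists as merged replicates and 3 (TFIIB, Taf1, CBP) as a single replicate. Per the submitters' processing notes the build was mm9, and coordinates are given in it. Depth is unknown. The aligner, peak caller and threshold were not given in the sources used here. Input, immunoglobulin and RNA samples were not used here. No mm9 sequence or annotation was used, so domains have no gene names and cell-type markers were not checked.

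A peak was inside a region if its centre was, and at an end if any base lay within 5000 bp. Rates were compared by exact conditional binomial intervals, shares by Wilson, Newcombe and Clopper-Pearson intervals. A difference was called where its interval excluded no difference. Regions were named by rule: the 10 longest, the 5 of highest area, of highest area per bp, with most Ser2P and with most total Pol II centres. The members and comparisons were chosen with earlier results of these data known. Alternatives covered the length rule, joining, windows, peak strength, the shorter peaks used and chromosomes. Python 3.11.15, numpy 2.4.6, scipy 1.17.1 and matplotlib 3.10.9 were used. On simulated regions 2400 counts matched direct counting with 0 differences, and 95.5% of simulated intervals for domains against shorter peaks (49181 regions) held the true ratio when centres fell independently.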

Additional observations from a re-analysis of the deposited data

How the results depend on the processing

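Of 110 alternative values for 9 results, 98 were counted as unchanged. These kept the direction and the side of the threshold, or for numbers of domains stayed within 1.5 times. Ratios by covered length, which have no interval, had to stay within the interval of the reported ratio. All alternatives for the total Pol II and Ser2P ratios (1.95 to 3.77 and 2.13 to 3.82) stayed above 1, with covered length in place of centres at 3.77 for total Pol II. The TBP ratio was no longer called with domains of 15000 bp or more (0.646) or with peaks joined over 1000 bp (0.890), and turned to 1.44 in the central 1000 bp, where 2 domains had a TBP peak. The end differences for TBP, total Pol II and Ser2P stayed above 0 in all 15 alternatives each (1.64 to 14.6, 8.58 to 19.8 and 4.97 to 16.1 points). That of H3K4me3 was 1.44 points over single ends, not called, and 5.98 to 20.2 elsewhere. Against joined tracts of 10000 bp or more without a domain, tracts with a domain differed by 13.1 points for H3K4me3, 14.1 for TBP, 15.6 for total Pol II and 8.24 for Ser2P. The share of Ser2P at the opposite end was called at 77.3% with 2000 bp windows, 69.5% with domains of 8000 bp or more and 68.6% with joined peaks, and turned to 40.0% with domains of 15000 bp or more. It was nearer 50% with the upper 50% of Ser2P peaks by area (53.8%), 10000 bp windows (57.6%) and windows only outside the domain (57.7%). The number of domains was 1384 at 8000 bp, 182 at 15000 bp and 3229 after joining. It stayed at 731 in the upper 50% of the H3K36me3 list by area, which holds every domain, so that alternative could not change it. The cause of these changes was not tested. Single ends, joined tracts with and without a domain, the central 1000 bp and leaving out the 10 fullest domains were chosen after seeing the data. No paired analysis was possible because each target had 1 list. Depth is unknown, so a missing peak does not show that a factor is absent.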

Other observations

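Most domains had no other domain nearby. Another domain lay within 10000 bp of 113 domains (15.5%) and within 1000 bp of 54 (7.39%). Of the neighbouring domains, 14 pairs were 100 bp or less apart, 27 pairs 1000 bp or less and 60 pairs 10000 bp or less, while the median gap between neighbouring domains was 1215 kb. Joined over gaps of 1000 bp or less, the tracts with a domain had H3K4me3 within 5000 bp of an end in 56.5% of 664 cases (52.7 to 60.2), against 43.4% (41.4 to 45.3) of the 2565 tracts of 10000 bp or more without a domain. Total Pol II stood at 46.5% against 30.9%, TBP at 42.3% against 28.2% and Ser2P at 16.1% against 7.88%. H3K4me3 lay at both ends of 85 of the 664 tracts and at 1 end of 290.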
